A study of Mus musculus with 22 samples.

Results

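Type A receptors for the inhibitory transmitter GABA are chloride channels built from subunits of several families, and 7 of their genes are described here in mouse forebrain tissue: Gabra2, Gabra3, Gabra4, Gabra5, Gabrb1, Gabrb2 and Gabrd. They were chosen by gene name from the 20565 genes of the deposited count tables, and all 7 were found in both tables and kept by the filter on low counts in each comparison. The study was designed to remove Smc3, which encodes a subunit of the cohesin complex that shapes chromosome loops, from adult forebrain neurons, and its title asks about anxiety-like behaviour in each sex. Bulk RNA was sequenced from 22 libraries in 4 groups: 6 male cKO, 5 male WT, 6 female cKO and 5 female WT. Both genotypes carried floxed Smc3 and both received tamoxifen by oral gavage, with mice labelled as 8 weeks old and as taken 6 weeks after tamoxifen. The libraries labelled cKO came from mice with Camk2a-cre/ERT2, a tamoxifen-dependent Cre recombinase under a promoter used to reach excitatory neurons, and those labelled WT from mice without it. The sample titles say hypothalamus and the tissue field says prefrontal cortex. The other cell types of the tissue contribute RNA to each library, so fewer cells of a type and less RNA per cell cannot be told apart in any result below.

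Each receptor is a ring of subunits around a chloride pore, usually with alpha and beta subunits and either a gamma or a delta subunit. GABA binds between beta and alpha subunits, while benzodiazepines bind between gamma and certain alpha subunits. Many receptors with a gamma subunit gather at synapses, where they give fast inhibition. Receptors with the delta subunit lie outside synapses, carry a steady inhibitory current and respond strongly to neurosteroids. In the forebrain these receptors set the excitability of principal cells and interneurons, and they are the targets of benzodiazepines, barbiturates and many anaesthetics.

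Total counts ran from 12771354 to 16896239 per library. Smc3 itself was higher in the libraries labelled cKO: 142 ± 15.7 CPM (counts relative to the scaled library total) in male cKO and 81.9 ± 9.92 CPM in male WT, and 130 ± 9.68 CPM in female cKO and 74.0 ± 5.91 CPM in female WT (SD, n = 6 cKO and 5 WT in each sex). The counts are per gene and do not separate the floxed part from the rest, so they do not check the deletion, and every direction below rests on the labels. All 18 excitatory neuron markers of the list used here averaged at least 1 CPM in each group. Of 15 hypothalamus markers, 11 were in the tables and 3 to 4 averaged at least 1 CPM per group. Summed striatum markers varied from 263 to 1117 CPM between libraries.

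In the libraries labelled cKO, 2 of the 7 subunit genes fell over both sexes, Gabrb1 and Gabrd, with no member rising. Over both sexes Gabrd was at 0.643 times its WT level and Gabrb1 at 0.789 times. In females alone Gabrb1 fell, and in males alone no member passed the threshold of an adjusted p under 0.05 in edgeR's quasi-likelihood test. In males 1 member, Gabrd, had an unadjusted p under 0.05, as did 1528 of all 16098 genes tested, and DESeq2 also called 0 members. The fitted log2 fold change (cKO over WT) was below 0 for 7 of 7 members in each sex, with a median of -0.10 in males and -0.29 in females, where the medians of all genes tested were both 0.01. For scale, 7.55% of the 16855 genes tested over both sexes passed this threshold, 4.87% lower and 2.68% higher. In females 3.37% of 16123 genes passed, 2.75% lower and 0.620% higher, and in males 0.584% of 16098 genes, 0.503% lower and 0.0808% higher. The labels do not say that each library is a separate animal beyond giving each its own number, so the p-values measure the spread between these libraries.

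**Figure D1:**
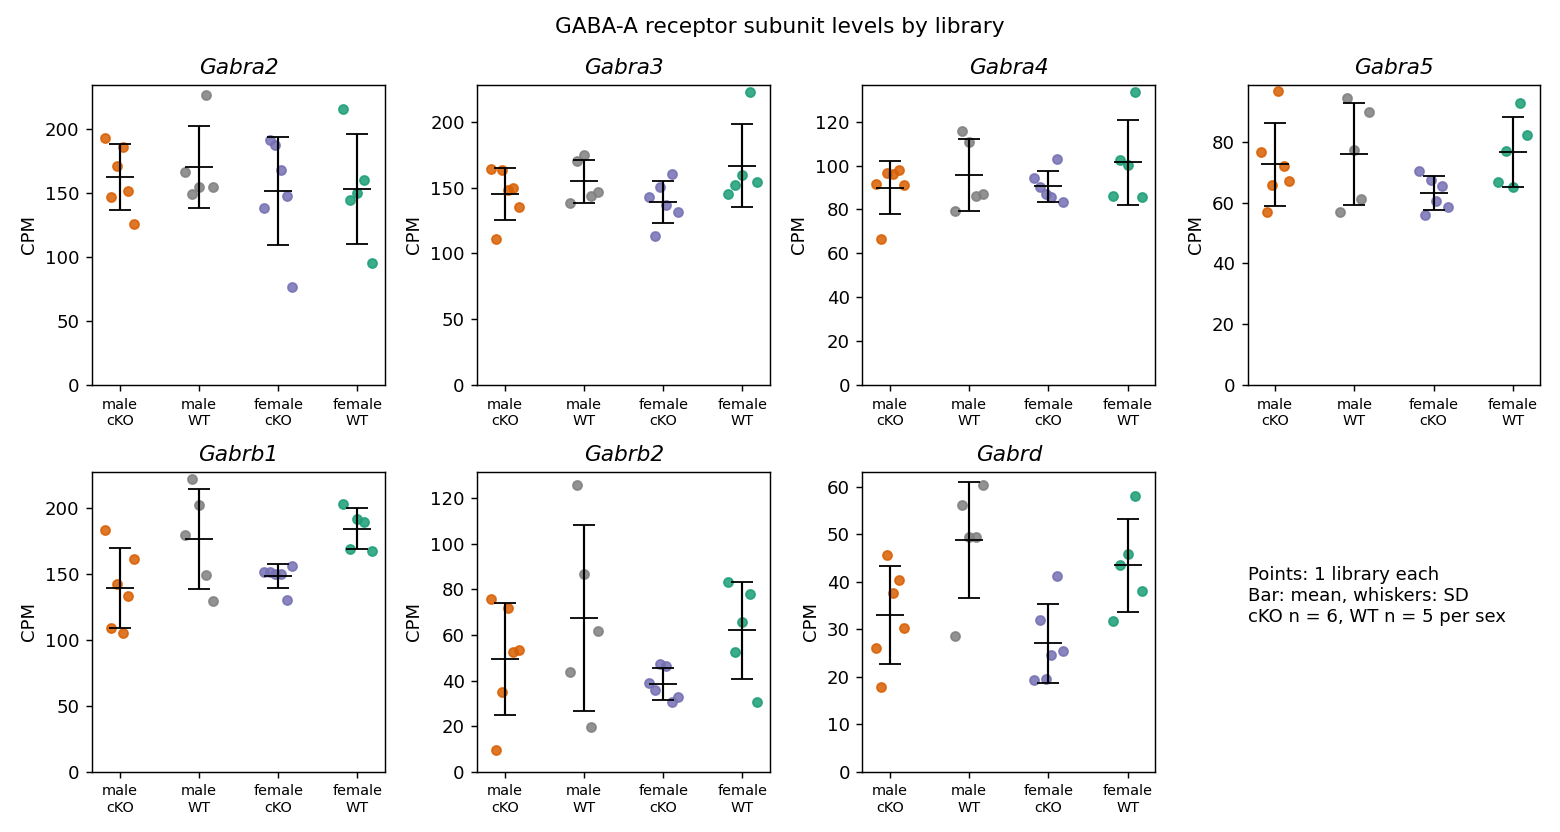
Level of each subunit gene in CPM (vertical axes, from 0) in every library of the 4 groups, with the cKO group left of its WT group in each sex. Points are libraries, long bars are means and whiskers are SD (n = 6 cKO and 5 WT per sex). The 6 female cKO libraries lie below all 5 female WT libraries for Gabrb1, and the male libraries of Gabrb2 are the most widely scattered.

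Gabrb1 encodes the beta1 subunit, a beta subunit that helps form the GABA binding site. On chromosome 5 its gene lies head to head with Gabra4, which encodes the alpha4 subunit. In RefSeq (GRCm38.p6) the 5′ ends of Gabrb1, at its first start, and Gabra4 overlap by 388 bases, and exons of both genes in GENCODE M21 share 46 bases. The library kit named in the labels is not stated to mark strand, so reads from that stretch cannot be assigned to one of the genes with certainty. The start regions of both are shown because Gabrb1 is the called member with a sequence in the promoter table and Gabra4 is its partner at this site. Each window runs from 250 bases before to 50 bases after the start, read in the direction of the gene. They are chr5:71657671-71657970 on the plus strand for the first start of Gabrb1, chr5:71699682-71699981 on the plus strand for its second start, and chr5:71658259-71658558 on the minus strand for Gabra4, all from RefSeq in build GRCm38.p6. Capitals mark matches to the EGR motif.
Gabrb1 first start: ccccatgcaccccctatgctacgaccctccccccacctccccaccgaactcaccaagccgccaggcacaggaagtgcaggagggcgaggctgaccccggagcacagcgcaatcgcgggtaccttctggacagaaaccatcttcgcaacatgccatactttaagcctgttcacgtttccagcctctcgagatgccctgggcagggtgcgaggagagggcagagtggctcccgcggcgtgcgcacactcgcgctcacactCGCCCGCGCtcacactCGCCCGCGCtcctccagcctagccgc
Gabrb1 second start: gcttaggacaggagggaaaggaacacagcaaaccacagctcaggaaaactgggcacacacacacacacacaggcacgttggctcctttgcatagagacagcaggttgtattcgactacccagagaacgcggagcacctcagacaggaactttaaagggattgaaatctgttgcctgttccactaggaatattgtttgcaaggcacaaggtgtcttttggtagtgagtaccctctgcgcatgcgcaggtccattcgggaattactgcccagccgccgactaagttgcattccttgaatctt
Gabra4 start: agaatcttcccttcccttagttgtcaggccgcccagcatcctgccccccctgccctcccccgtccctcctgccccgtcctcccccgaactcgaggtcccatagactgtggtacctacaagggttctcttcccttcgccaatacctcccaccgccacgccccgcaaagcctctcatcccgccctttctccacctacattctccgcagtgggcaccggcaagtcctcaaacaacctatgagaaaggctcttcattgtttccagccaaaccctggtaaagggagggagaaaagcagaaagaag

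The EGR motif was searched as GCGNGGGCG on both strands. It occurs in 2 places of the first Gabrb1 window, at bases 259 to 267 and 275 to 283 counted from 1 at its 5′ end, both on the reverse strand. The second Gabrb1 window and the Gabra4 window hold none. Of 32851 promoter windows of the same length in the table, 5.55% hold this motif. Among the 10 windows of the 6 members with an entry, the first Gabrb2 window is the only other one with a match. The CRE motif TGACGTCA, in 1.79% of all windows, was found in no member window, and neither was the CTCF core motif, in 0.0365% of all windows. The first Gabrb1 window is 66.0% G or C with 25 CG pairs, its second is 50.3% G or C with 9, and the Gabra4 window is 58.7% G or C with 12, against medians of 52.7% and 7 over all windows. These matches describe the letters and say nothing about whether a factor binds there.

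In females, Gabrb1 had a lowest level of 130.5, a median of 151 and a highest level of 156 CPM over the 6 cKO libraries. The 5 WT libraries had 167, 169, 189.6, 192 and 203 CPM. The groups did not overlap: each cKO library lay below the lowest WT library. Gabrb1 was the only member with such a gap in either sex. Among all genes tested, cKO libraries lay wholly below WT libraries for 2.40% in females and 1.25% in males, and wholly above them for 1.15% and 0.895%. The log2 fold change was -0.32 (SE 0.07), with an edgeR adjusted p of 0.0209. In the authors' deposited table the female log2 fold change was -0.319 with an adjusted p of 0.00101. The call was lost without female WT replicate 19, where the adjusted p was 0.0556, and in one fit of all 4 groups, where it was 0.300.

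In males the estimate for Gabrb1 was of similar size, with more scatter. Male cKO libraries had a lowest level of 105, a median of 138 and a highest level of 183 CPM. Male WT libraries had 129, 149, 179.7, 202 and 222 CPM. The groups overlapped, with 2 of the 6 male cKO libraries below the lowest male WT library. The log2 fold change was -0.35 (SE 0.17) with an edgeR adjusted p of 0.559. Over both sexes it was -0.34 (SE 0.09), with a 95% interval of -0.53 to -0.15 and an adjusted p of 0.0218. Without male WT replicate 3, the highest male library, the adjusted p over both sexes was 0.0619 and the log2 fold change -0.29.

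Gabrd encodes the delta subunit, which marks receptors outside synapses. It had the lowest CPM of the 7 members, at 37.4 ± 12.8 CPM over all 22 libraries (SD). Its male cKO libraries had a lowest level of 17.8, a median of 34.0 and a highest level of 45.8 CPM. The male WT libraries had 28.6, 49.4, 49.5, 56.2 and 60.5 CPM. Each male cKO library lay below the male WT median, and the groups overlapped through male WT replicate 1 at 28.6 CPM. Female cKO libraries had a lowest level of 19.4, a median of 24.97 and a highest level of 41.3 CPM. Female WT libraries had 31.9, 38.2, 43.6, 45.8 and 58.1 CPM. Again each cKO library lay below the WT median, and the groups overlapped through female cKO replicates 24 and 21, at 41.3 and 32.0 CPM.

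For Gabrd the log2 fold change was -0.57 (SE 0.24) in males and -0.69 (SE 0.20) in females. Neither passed the threshold alone, with edgeR adjusted p-values of 0.443 in males and 0.0840 in females. Over both sexes Gabrd fell and was at -0.64 (SE 0.16), with a 95% interval of -0.97 to -0.30 and an adjusted p of 0.0145. Leaving out each of the 22 libraries in turn kept this call, with adjusted p-values from 0.00480 to 0.0333. In females alone, the adjusted p was 0.0134 without female cKO replicate 24 and 0.0495 without female WT replicate 16. DESeq2 gave 0.0177 with all female libraries, and the authors' deposited table has 0.0207 in females and 0.39 in males. Other edgeR fits went the other way for females, with an adjusted p of 0.160 in one fit of all 4 groups. It was 0.145 with the level of oligodendrocyte markers as an added term, and up to 0.179 with a female library left out.

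Gabrb2 encodes the beta2 subunit, another beta subunit that helps form the GABA binding site. Its levels spread most among the members, from 9.50 to 126 CPM over the 22 libraries, a ratio of 13.2, while the same ratio for the other members ran from 1.73 for Gabra5 to 3.40 for Gabrd. Male cKO libraries had a lowest level of 9.50, a median of 52.8 and a highest level of 75.9 CPM. Male WT libraries had 19.6, 43.6, 61.6, 86.8 and 126 CPM. The male groups overlapped almost throughout, and the extremes were male cKO replicate 13 and male WT replicate 3. Female cKO libraries had a lowest level of 30.7, a median of 37.4 and a highest level of 47.2 CPM. Female WT libraries had 30.5, 52.7, 65.7, 78.1 and 83.4 CPM. In females 4 of the 5 WT libraries lay above all cKO libraries, and WT replicate 26 lay below all of them.

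The Gabrb2 log2 fold change was -0.70 (SE 0.21) in females with an edgeR adjusted p of 0.105, and -0.45 (SE 0.49) in males with an adjusted p of 0.901. Over both sexes it was -0.58 (SE 0.28) with an adjusted p of 0.245. In edgeR the female adjusted p was 0.00625 without female WT replicate 26 and up to 0.211 with another female library left out. It was 0.556 in one fit of all 4 groups and 0.166 with the level of oligodendrocyte markers as an added term. DESeq2 gave 0.0296 in females, and the authors' deposited table has 0.0355 there and 0.997 in males. The 95% interval in males, from -1.52 to 0.62, leaves room for a large change in either direction.

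The alpha subunits bear on how a receptor with a gamma subunit responds to benzodiazepines. Gabra2 encodes alpha2, a benzodiazepine-sensitive subunit found at synapses and at the start of axons, which in mice is tied to the calming action of these drugs. Male cKO libraries had a lowest level of 126, a median of 161 and a highest level of 193 CPM. Male WT libraries had 149, 154, 155, 166 and 227 CPM. Female cKO libraries had a lowest level of 76.7, a median of 158 and a highest level of 191 CPM, and female WT libraries had 95.5, 144, 150.4, 160.2 and 216 CPM. The groups overlapped in both sexes. Gabra2 had the smallest difference of the 7 over both sexes, with a log2 fold change of -0.06 (SE 0.14), a 95% interval of -0.34 to 0.23 and an edgeR adjusted p of 0.882.

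Gabra3 encodes alpha3, another benzodiazepine-sensitive subunit. Levels in male cKO libraries had a minimum of 111, a median of 149 and a highest level of 164 CPM, and male WT libraries had 139, 144, 146, 169.9 and 175 CPM. Female cKO libraries had a lowest level of 113, a median of 139.9 and a highest level of 160.4 CPM, and female WT libraries had 145, 152, 155, 159.9 and 223 CPM. In females 4 of the 6 cKO libraries lay below every WT library, while the male groups overlapped more. The log2 fold change was -0.10 (SE 0.11) in males, -0.27 (SE 0.11) in females and -0.19 (SE 0.08) over both sexes, with edgeR adjusted p-values of 0.899, 0.242 and 0.170.

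Gabra5 encodes alpha5, which lies mostly outside synapses and is anchored by radixin. Male cKO libraries had a lowest level of 57.1, a median of 69.6 and a highest level of 96.7 CPM, and male WT libraries had 57.0, 61.4, 77.2, 90.0 and 94.6 CPM. Female cKO libraries had a lowest level of 56.0, a median of 63.2 and a highest level of 70.5 CPM, and female WT libraries had 65.0, 66.7, 77.0, 82.4 and 92.8 CPM. The male groups covered the same range, while in females each cKO library lay below the WT median. The log2 fold change was -0.07 (SE 0.16) in males, -0.29 (SE 0.09) in females and -0.19 (SE 0.10) over both sexes. The edgeR adjusted p-values were 0.968, 0.108 and 0.285, and in the authors' deposited table the female one is 0.0926.

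Gabra4 encodes alpha4, a subunit that classical benzodiazepines do not act on and that often pairs with delta. The lowest of the male cKO libraries had 66.4 CPM, their median was 94.0 and the highest had 97.7 CPM, and male WT libraries had 79.1, 86.3, 87.1, 111 and 116 CPM. Female cKO libraries had a lowest level of 83.4, a median of 88.6 and a highest level of 103 CPM, and female WT libraries had 85.9, 86.0, 100.1, 102 and 133 CPM. The groups overlapped in both sexes. The log2 fold change over both sexes was -0.14 (SE 0.08), with a 95% interval of -0.31 to 0.03 and an edgeR adjusted p of 0.363. Its own sex fits gave -0.10 (SE 0.13) in males and -0.17 (SE 0.10) in females.

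**Figure D2:**
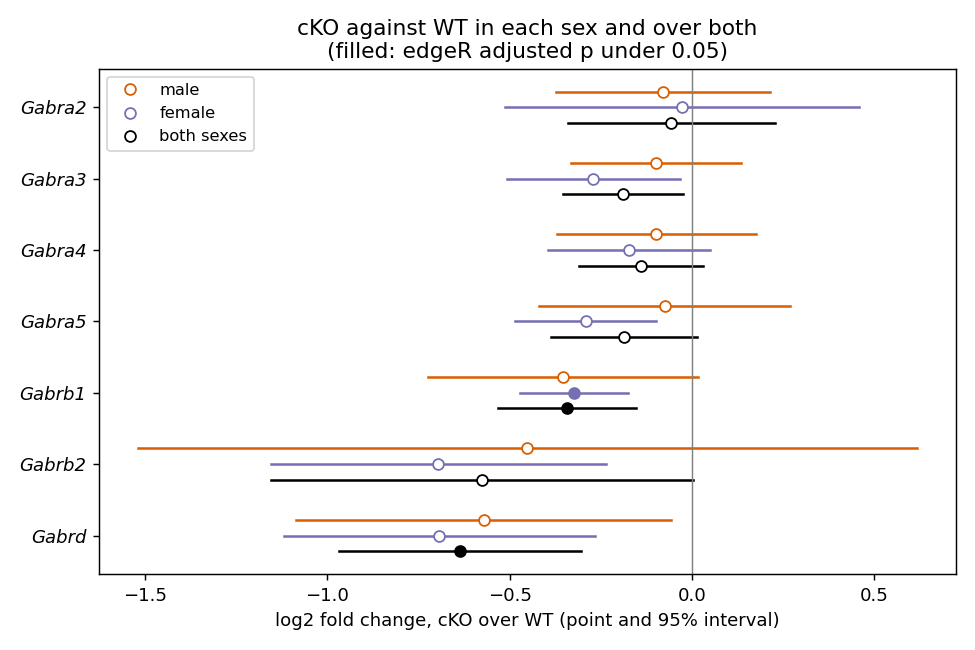
Log2 fold change of each subunit gene, cKO over WT (horizontal axis), as a point with its 95% interval, for males, females and both sexes together. Filled points have an edgeR adjusted p under 0.05. All 21 points lie below 0, and the filled ones are Gabrb1 in females and over both sexes and Gabrd over both sexes.

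The title of the study names sex, so the effects in females and males were compared directly. The difference, as the female log2 fold change minus the male one, ran from -0.25 for Gabrb2 to 0.05 for Gabra2 among the 7 members. No member passed the threshold (edgeR adjusted p of 0.999979 for each), and none had an unadjusted p under 0.05. For Gabrb1 the difference was 0.03 (SE 0.19), with a 95% interval of -0.36 to 0.42, and for Gabrd it was -0.12 (SE 0.33), with an interval of -0.80 to 0.56. These intervals are wider than the effects within either sex, so the female call of Gabrb1 beside a male value short of the threshold does not show that the sexes differ. Of all 16855 genes tested for this difference, 0% passed the threshold in edgeR and in DESeq2, and 176 had an unadjusted edgeR p under 0.05.

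Per length of exon (GENCODE M21), the members stood in the order Gabra3, Gabra5, Gabra2, Gabra4, Gabrd, Gabrb1 and Gabrb2. Mean levels over all 22 libraries were 38.4 ± 5.76 CPM per kilobase for Gabra3 and 24.1 ± 4.27 for Gabra5. They were 20.8 ± 4.51 for Gabra2, 15.5 ± 2.27 for Gabra4, 12.99 ± 4.46 for Gabrd, 11.6 ± 2.19 for Gabrb1 and 8.42 ± 4.13 for Gabrb2, all in CPM per kilobase (SD). Gabra3 stood above its neighbour by more than the SD of either gene. The other neighbours in this order lay closer together than the larger SD of the pair, except Gabra2 and Gabra4. All exons of a gene were counted in its length, which for Gabrb1 comes to 13838 bases, and a gene whose main transcripts use fewer of them would stand higher.

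Levels of several members moved with the level of oligodendrocyte markers in the libraries. The summed level of 20 oligodendrocyte markers, genes of myelin-forming cells, ran from 2828 to 13810 CPM in male cKO, 2125 to 11276 in male WT, 5093 to 16267 in female cKO and 3712 to 11688 in female WT. None of the 20 markers was at 0 in any group and none passed the threshold, with a median log2 fold change of 0.41 in females and 0.10 in males. The fitted change was above 0 for 20 of the 20 in females and over both sexes, and for 15 in males. Across the 22 libraries, the log2 level of Gabra5 fell as the mean log2 marker level rose, with Pearson's r = -0.77 and Spearman's rho = -0.71. The Benjamini-Hochberg adjusted permutation p-values over the 7 relations tested were 0.00042 and 0.00231. For Gabrd r was -0.67 and rho -0.65, with adjusted permutation p-values of 0.0028 and 0.00303. Gabra3, Gabra4 and Gabrb2 had r of -0.59, -0.52 and -0.53, with rho of -0.69, -0.54 and -0.50 and adjusted permutation p-values of r of 0.0067, 0.0162 and 0.0162.

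Over all 22 libraries Gabrb1 and Gabra2 showed no such relation, with r of 0.03 and -0.03 and rho of 0.00 and -0.02. The adjusted permutation p of r was 0.904 for both. Without the 2 libraries farthest from the median marker level, r was -0.68 for Gabra5, -0.55 for Gabrd, -0.67 for Gabra3, -0.57 for Gabra4 and -0.43 for Gabrb2. Taken as deviations from the group means, r was -0.78, -0.68, -0.66, -0.62 and -0.55 in the same order. It was 0.10 for Gabrb1 and 0.11 for Gabra2. Within the 6 male cKO libraries r was -0.80 for Gabra5, -0.86 for Gabrd and -0.69 for Gabrb2, and within the 6 female cKO libraries it was -0.33, -0.47 and 0.34. For Gabra3 and Gabra4 r was -0.70 and -0.83 in male cKO, and -0.79 and -0.50 in female cKO. Gabrb1 had 0.17 in male cKO and 0.80 in female cKO, and Gabra2 had -0.52 and 0.12. Female cKO replicate 24 had the lowest marker level of its group, a mean log2 of 6.37 where the other 5 libraries had 7.08 to 7.95. How far each female cKO value rests on it was not tested, because without it the group is too small for a value. The WT groups of 5 libraries are too small for a value. Both quantities are scaled by the same library total. With the marker level as an added term, the Gabrd log2 fold change over both sexes was -0.54 (edgeR adjusted p 0.00602) and that of Gabrb1 -0.35 (0.0194). In females Gabrb1 was at -0.35 with an adjusted p of 0.0222 in the fit with that term. Over both sexes Gabra3, Gabra4, Gabra5 and Gabrb2 changed less with the term, at -0.14, -0.09, -0.10 and -0.39. Without it they were at -0.19, -0.14, -0.19 and -0.58, and Gabrd was at -0.64. Gabra2 was at -0.07 with the term and -0.06 without it. These relations were chosen after the values were seen.

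**Figure D3:**
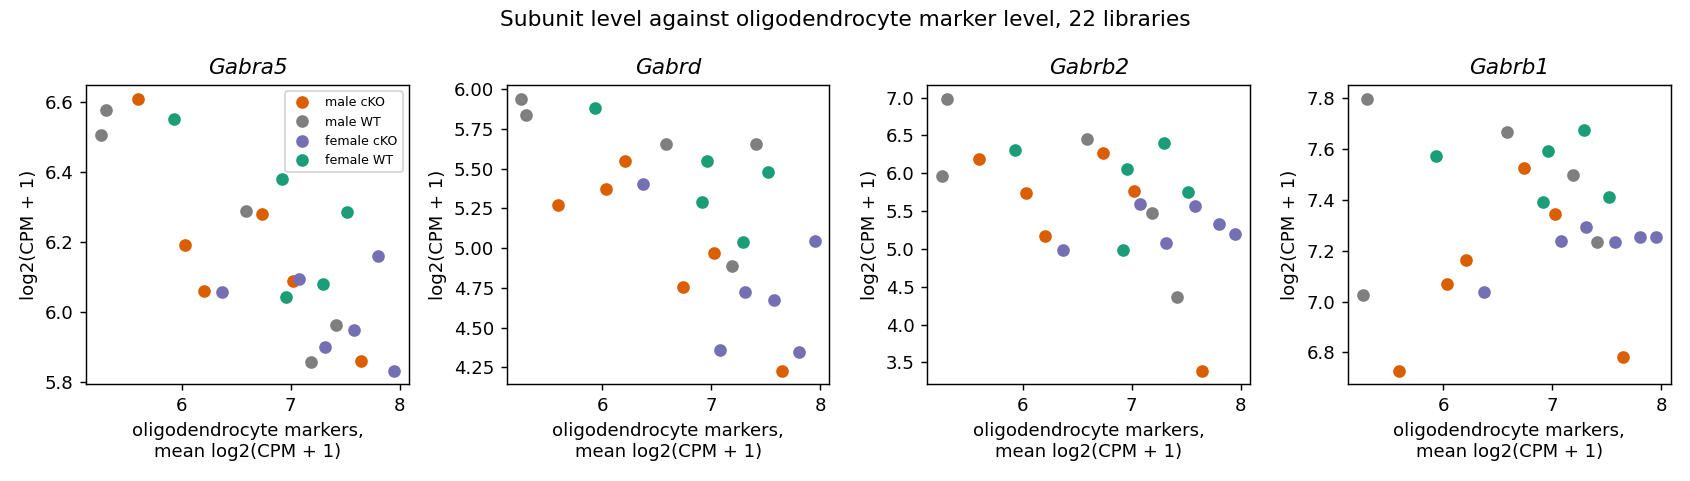
Level of Gabra5, Gabrd, Gabrb2 and Gabrb1 as log2(CPM + 1) (vertical axes) against the mean log2(CPM + 1) of 20 oligodendrocyte markers (horizontal axes) in 22 libraries, coloured by group. Levels of Gabra5, Gabrd and Gabrb2 are lower at higher marker levels (r of -0.77, -0.67 and -0.53), while Gabrb1 has r of 0.03.

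Most neuron markers did not pass the threshold. In males 0 of 18 excitatory and 0 of 20 interneuron markers passed in edgeR. Of these, 3 and 1 had an unadjusted p under 0.05, as did 1528 of all 16098 genes tested in males. Over both sexes 3 of the 18 excitatory neuron markers fell (Calb1, Rasgrf2 and Etv1) and 1 rose (Slc17a6, a glutamate transporter gene). Among all genes tested 4.87% were lower and 2.68% higher. The other 14 excitatory markers did not pass, and the median log2 fold change of the 18 was -0.16. Their summed level was 4565 to 6778 CPM in male cKO, 4063 to 7014 in male WT, 4315 to 6157 in female cKO and 4824 to 8265 in female WT. Of the 20 interneuron markers, 1 fell over both sexes, a share near the 4.87% of all genes that were lower. It was Vip, which marks an interneuron class, at -0.97 on the log2 scale (edgeR adjusted p 0.00511), and 8 of the 20 had a log2 fold change above 0. In females 2 of the 20 interneuron markers fell, Vip and Sst, and 3 of the 18 excitatory markers. Among all genes tested in females 2.75% were lower. The summed level of the 20 interneuron markers was 848 to 1601 CPM in male cKO, 941 to 1462 in male WT, 855 to 943 in female cKO and 967 to 1280 in female WT. In females the interneuron sums of the groups did not overlap, but the mean log2 levels of the same markers did. These were 4.76 to 4.95 in female cKO and 4.89 to 5.11 in female WT. Of 15 astrocyte markers, 1 rose over both sexes and none fell, with a median log2 fold change of 0.06. It was Gfap, a gene that rises in reactive astrocytes, at 0.88 (adjusted p 0.00066). The part of these markers in the Gabrb1 and Gabrd results was not tested.

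Among the receptor genes outside the 7, Gabrg3, which encodes gamma3, fell over both sexes. It averaged 24.9 ± 5.57 CPM in male cKO and 38.1 ± 12.2 CPM in male WT, and 29.6 ± 3.56 CPM in female cKO and 44.6 ± 4.42 CPM in female WT (SD, n = 6 cKO and 5 WT per sex). All 6 female cKO libraries lay below all 5 female WT libraries, as for 2.40% of all genes tested in females. Over both sexes it was at -0.62 on the log2 scale (SE 0.11, edgeR adjusted p 0.00109), and it stayed called without each library in turn. In females alone Gabrg3 fell as well, at -0.60 on the log2 scale (edgeR adjusted p 0.00351), and in one fit of all 4 groups this adjusted p was 0.0636.

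Of 28 genes for the anchoring, assembly and traffic of the receptors, Hap1 and Nlgn2 fell over both sexes and none rose, and among all genes tested 4.87% were lower, so the count of this list is near that of all genes. Hap1 encodes a huntingtin partner that helps return receptors to the membrane, and it averaged 206 ± 44.8 CPM in male cKO and 344 ± 85.9 CPM in male WT, and 243 ± 69.5 CPM in female cKO and 321 ± 76.3 CPM in female WT. Over both sexes it was at -0.59 on the log2 scale (SE 0.14, adjusted p 0.0116). Nlgn2, an adhesion molecule of inhibitory synapses, was at -0.12 (SE 0.04, adjusted p 0.0387), and that call was lost without any one of 14 libraries, with an adjusted p of up to 0.112, and with RLE factors (0.0517), no filter (0.102) or the marker term (0.0542). Gphn, which encodes the scaffold gephyrin, was at 0.12 (SE 0.07, adjusted p 0.341). The median of the 28 was 0.01, and that of all genes tested was also 0.01.

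None of the 9 genes for making, packaging, taking up and breaking down GABA passed the threshold in either sex or over both, in edgeR. Of these 9, 2 had an unadjusted p under 0.05 in females, 0 in males and 0 over both sexes. Among all genes tested, 2536 of 16123 had one in females, 1528 of 16098 in males and 3467 of 16855 over both sexes. DESeq2 called 1 of the 9 in females and 0 in the other comparisons. The smallest p-values over both sexes belonged to Slc38a1, a glutamine transporter, at 0.13 (SE 0.09), and Slc32a1, the vesicular GABA transporter, at 0.29 (SE 0.21). Of 6 genes of the metabotropic GABA-B receptor, Kctd16, an auxiliary subunit, fell over both sexes and was at -0.66 on the log2 scale (SE 0.18, edgeR adjusted p 0.0212). Without male WT replicate 3 its adjusted p was 0.0542. Among all genes tested, 4.87% were lower over both sexes and 2.75% were lower in females. Kctd12, another auxiliary subunit, fell in females (-0.42, SE 0.09, adjusted p 0.0165, but 0.740 in one fit of all 4 groups), while Gabbr2, which encodes a main subunit, was at -0.40 (SE 0.14, adjusted p 0.0953) over both sexes. Of 7 tested genes of neurosteroid and endozepine supply, Cyp11a1, the enzyme that starts steroid synthesis, rose over both sexes. Cyp11a1 was at 0.78 (SE 0.17, edgeR adjusted p 0.00565), where 2.68% of all genes tested over both sexes were higher. It is a low gene here, at 3.79 ± 0.643 CPM in male cKO and 2.16 ± 0.592 CPM in male WT, and 3.03 ± 0.551 CPM in female cKO and 1.77 ± 0.852 CPM in female WT. Dbi, which encodes a peptide that binds the benzodiazepine site, was at 0.26 (SE 0.15, adjusted p 0.342).

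**Figure D4:**
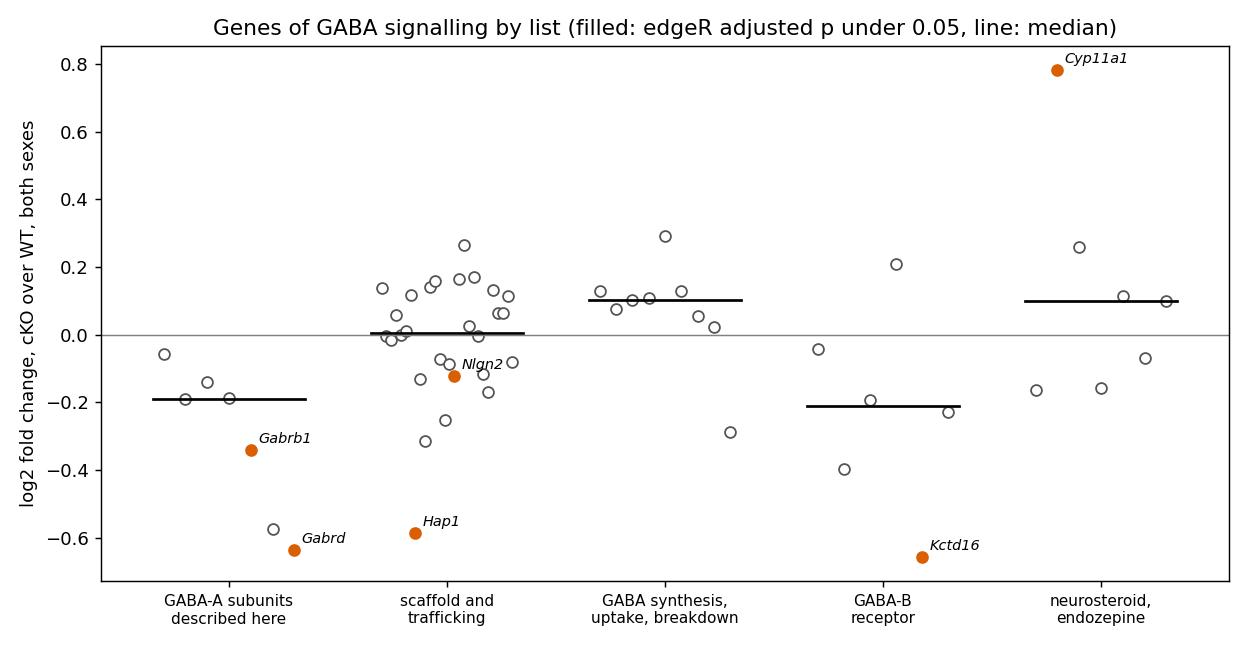
Log2 fold change over both sexes, cKO over WT (vertical axis), of the tested genes in 5 lists of GABA signalling (horizontal axis). Each point is a gene, filled where the edgeR adjusted p is under 0.05, and lines are list medians. The 7 subunits described here have a median of -0.19, and the 28 scaffold and traffic genes one of 0.01.

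Most members sit in clusters with other subunit genes. The estimates of neighbours varied, and no test compared a member with its neighbour. On chromosome 7 Gabra5, at -0.19 (SE 0.10), lies next to Gabrg3, at -0.62 (SE 0.11), as log2 fold changes over both sexes. On chromosome 5 Gabrb1, which fell (-0.34, SE 0.09), lies between Gabra4 (-0.14, SE 0.08) and Commd8, a gene of endosomal sorting (0.06, SE 0.06). Gabra2 on the same chromosome has Gabrg1 beside it, at -0.22 (SE 0.16, edgeR adjusted p 0.475), and Cox7b2 on the other side was too low to test. On chromosome 4 Gabrd stands between Prkcz, a protein kinase gene, at -0.03 (SE 0.05), and Cfap74, at 0.02 (SE 0.08), neither past the threshold. On the X chromosome Gabra3 is next to Gabrq, which encodes the theta subunit, at -0.87 (SE 0.33, adjusted p 0.120). On chromosome 11 Gabrb2 is next to Atp10b, at 0.06 (SE 0.25). The sign of Atp10b and of Cfap74 turned negative with the oligodendrocyte marker term.

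The genes whose levels moved most like each member were ranked over 12712 genes with a mean count of at least 50. The measure was the root mean square difference of log2 CPM, centred on the mean of each sex, over the 22 libraries. Gabra4 had the closest companion, Cx3cl1, at 0.07, followed by Dlg1 at 0.08, where Gabra4 itself varied by 0.20 around its sex means. Gabra3 was closest to Fam217b (0.09) and Fbxo45 (0.10), and Gabrb1 to Lsamp and Hspa12a (0.12 each). Atcay was among the genes closest to Gabra5, at 0.12. The more variable members had looser companions: Gabrd was closest to Vegfc (0.21, its own spread 0.49), and Gabrb2 to Klhl11 (0.24) and Trpc5 (0.25, its own spread 0.76). Gabra2, closest to Apbb1ip (0.26) and Lbr (0.28), had no companion much nearer than its own spread of 0.33. Among the 7 members, Gabra3 and Gabra4 were the nearest pair at 0.11, with Gabra4 ranking 15th for Gabra3 and Gabra3 ranking 44th for Gabra4.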

How the data were processed

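The authors deposited whole-number read counts per gene, with males and females in separate tables. Per the submitters' processing notes, cutadapt, STAR, HTSeq, DESeq2 and build GRCm39 were used; their versions, the annotation and the strand setting are not stated in these sources. The authors' deposited log2 fold changes, p-values and adjusted p-values are quoted only where named, and 22 columns of normalized values were not used. Column cko20 matches no sample title and was taken as a female cKO replicate, number 20.

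Genes passing edgeR's filterByExpr (minimum count 10, minimum total 15) were scaled by TMM and fitted with glmQLFit and glmQLFTest (edgeR 4.0.16, limma 3.58.1, R 4.3.3), each sex alone, the genotype by sex term, and both sexes with sex as a covariate. The adjustment is Benjamini-Hochberg over all genes tested. SE was derived from the log2 fold change and the F statistic. CPM use TMM factors of all 22 libraries. Correlations used 100000 two-sided permutations over all 22 libraries, without regard to genotype and sex (numpy 2.4.6). Depth limits precision for low genes. Alternatives were RLE factors, no filter, DESeq2 1.42.0, each library left out, an oligodendrocyte marker term and one fit of 4 groups. The fits were tested on simulated data.

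The 7 members and all gene lists were chosen with earlier results of these data known. Named were all members, and of each GABA signalling list the genes past the threshold in any comparison and the 2 with the smallest p over both sexes. To these came the nearest protein-coding neighbours (RefSeq) and the 2 genes most like each member. Marker genes, Gphn and the nearest pair among the members were named after their values were seen. Some genes that this rule takes are not reported here.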

Additional observations from a re-analysis of the deposited data

Results flagged for a closer look

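Of 28 sets of libraries examined, 1 for each member in each group, 4 held a library that stood apart from the rest of its group by Dixon's criterion, and chance alone gives about 1 in 20. In male WT, Gabra2 reached 227 CPM in replicate 5, with the next library at 166 CPM. In female WT, Gabra3 reached 223 CPM in replicate 25, with the next at 159.9 CPM. In male cKO, Gabra4 was at 66.4 CPM in replicate 13, with the next at 90.9 CPM. In female cKO, Gabrb1 was at 130.5 CPM in replicate 24, with the next at 149.8 CPM. None of the 4 decides a call: Gabrb1 remained called in females without replicate 24, and the other 3 genes were not called in either case.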

How the results depend on the processing

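No paired analysis was possible because no replicate number occurs in more than one group. In males, the count of genes called was 94 over all genes, against 335 with DESeq2, 266 with the oligodendrocyte marker term, 276 in one fit of all 4 groups and 18 to 201 with a library left out. In males 0 members were called in each alternative. In females it was 543, against 919 with DESeq2, 294 in one fit and 324 to 681 with a library left out. There 1 member was called, against 3 with DESeq2 (Gabrb2 and Gabrd added), 0 in one fit and 0 to 2 with a library left out. Over both sexes the count was 1272 (1052 to 1645 with a library left out) and 2 members (1 to 2). For the difference between sexes it was 0 throughout. The cause was not tested. With the marker term Atp10b was at -0.098 and Cfap74 at -0.019. Signs turned with a library left out for Gabra2 (males -0.13 to 0.044, females -0.16 to 0.13, both -0.12 to 0.020, difference -0.081 to 0.21) and Gabra5 (males -0.18 to 0.020). They also turned in the difference for Gabra4 (-0.15 to 0.036), Gabrb1 (-0.069 to 0.12) and Gabrd (-0.28 to 0.022), and over both sexes for Atp10b (-0.067 to 0.18) and Cfap74 (-0.0025 to 0.079), none of them called.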
